A study of Mus musculus with 8 samples.

Results

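The 4 genes described here, Ifnar1, Ifnar2, Ifngr1 and Ifngr2, encode the chains of the type I interferon receptor and of the interferon gamma receptor. Binding of DC-SCRIPT, the zinc finger protein encoded by Zfp366, had been profiled around them by CUT&Tag, an assay in which an antibody guides a transposase to the protein so that the DNA beside it can be sequenced. The cells were conventional dendritic cells (cDC) of the spleen, sorted as cDC1 or cDC2 from female C57BL/6 mice that were either zfp366+/+ (wild type) or zfp366-/- (knockout). Each library came from a pool of mice. For cDC1 the series has 3 libraries from wild-type mice and 2 from knockouts. For cDC2 it has 1 from wild-type mice and 2 from knockouts. The labels used here give neither an age nor the deleted part of Zfp366. The lists of peaks hold no expression values, so the loss of Zfp366 and the identity of the sorted cells could not be checked from them.

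Peaks were chosen by position. A peak belonged to a receptor gene when its centre lay inside the gene or, if it lay in no protein-coding gene, when that gene was the nearest. The peaks themselves had been called by the authors because wild-type tags exceeded knockout tags at least 4-fold, so the fold at a listed peak describes it and supports nothing further. By this rule 36 of 34249 peaks were receptor peaks, 28 of 31473 in cDC1 and 8 of 2776 in cDC2. The genes were picked with earlier results of these data known. All values are for pooled tags, with 1 value per genotype and subset, so no spread between mouse pools can be given and no test between genotypes or subsets was made. The depth of the cDC1 sets was 35.5 M tags (wild type) and 12.1 M (knockout), and of the cDC2 sets 4.77 M and 6.83 M. A normalised tag value below is a peak's number of tags per 10000000 tags of its set. Intervals are exact (Clopper-Pearson) 95% intervals of a ratio of tags and cover counting error only. Repeated tags were counted as separate, so they may be too narrow.

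Type I interferons bind a receptor made of IFNAR1 and IFNAR2, whose associated kinases TYK2 and JAK1 phosphorylate STAT proteins. Interferon gamma binds IFNGR1, and IFNGR2 completes that receptor and brings in JAK2. In dendritic cells, type I interferon promotes cross-presentation and maturation, and interferon gamma from T and NK cells raises antigen presentation and the output of interleukin 12. Ifnar2, Ifnar1 and Ifngr2 lie in 1 cluster on chromosome 16, together with Il10rb, which encodes a chain shared by the receptors for interleukin 10 and interferon lambda. Ifngr1 lies apart on chromosome 10, beside Il22ra2 and Il20ra, further genes of the class II cytokine receptor family.

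The start of each receptor gene is shown first, because every one of the 4 carried a cDC1 peak within 1 kb of it. Of 17492 protein-coding genes with a start site in the RefSeq table, 31.8% carried one. The sequences are the 250 bases before the start site in RefSeq, build GRCm38.p6, plus strand, with the bases that fall in a cDC1 peak in capitals. They lie at chr16:91372533-91372782 for Ifnar2, chr16:91484965-91485214 for Ifnar1, chr16:91546809-91547058 for Ifngr2 and chr10:19591699-19591948 for Ifngr1. The Ifngr2 stretch has no capitals, because the nearest peak ended just below it. At Ifngr1, 94 bases lay in the peak, and the rest of that peak extended upstream of the stretch.
Ifnar2: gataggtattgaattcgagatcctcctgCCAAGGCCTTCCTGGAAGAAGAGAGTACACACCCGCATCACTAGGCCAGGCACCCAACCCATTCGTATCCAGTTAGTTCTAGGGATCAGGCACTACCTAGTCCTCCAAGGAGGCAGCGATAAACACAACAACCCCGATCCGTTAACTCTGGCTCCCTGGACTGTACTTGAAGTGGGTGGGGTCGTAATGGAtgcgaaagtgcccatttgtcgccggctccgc
Ifnar1: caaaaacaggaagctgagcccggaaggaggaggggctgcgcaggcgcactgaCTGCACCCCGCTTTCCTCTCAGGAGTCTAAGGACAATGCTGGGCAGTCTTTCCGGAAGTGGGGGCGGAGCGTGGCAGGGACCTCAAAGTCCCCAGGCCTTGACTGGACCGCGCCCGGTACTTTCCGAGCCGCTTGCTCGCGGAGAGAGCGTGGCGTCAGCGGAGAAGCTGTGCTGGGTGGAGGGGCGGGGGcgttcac
Ifngr2: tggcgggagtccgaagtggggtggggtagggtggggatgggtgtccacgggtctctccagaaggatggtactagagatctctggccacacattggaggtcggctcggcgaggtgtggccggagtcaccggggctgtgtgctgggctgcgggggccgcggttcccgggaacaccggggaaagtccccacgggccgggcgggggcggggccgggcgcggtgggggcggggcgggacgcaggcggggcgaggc
Ifngr1: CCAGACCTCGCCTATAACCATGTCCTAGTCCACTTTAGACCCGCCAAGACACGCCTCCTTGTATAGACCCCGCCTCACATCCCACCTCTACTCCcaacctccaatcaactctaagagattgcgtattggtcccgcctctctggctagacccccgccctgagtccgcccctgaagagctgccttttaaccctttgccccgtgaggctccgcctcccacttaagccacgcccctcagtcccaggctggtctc

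These start regions differed in composition. Over the 300 bases around the start site, with 250 before and 50 after it, G and C made up 74.3% at Ifngr2, 68.3% at Ifnar1, 60.3% at Ifngr1 and 57.0% at Ifnar2. The median over 21263 such windows of 17492 protein-coding genes was 56.3%. The dinucleotide CG occurred 31 times at Ifngr2, 26 times at Ifnar1, 18 times at Ifnar2 and 14 times at Ifngr1, against a median of 13. Motifs were searched on both strands of the same windows. The GC box GGGCGG occurred at all 4 genes, with 4 matches each at Ifnar1 and Ifngr2, 2 at Ifngr1 and 1 at Ifnar2, and in 46.2% of all windows. The ETS core GGAA, present in 95.7% of windows, had 7 matches at Ifnar1, 4 at Ifngr2, 2 at Ifnar2 and none at Ifngr1. The motif TTCNNNGAA, the gamma-activated sequence (GAS), was found once at Ifnar2, inside the peak and overlapping both GGAA matches there, and once at Ifnar1, beyond the peak. It was present in 7.69% of windows. CCAAT occurred 2 times at Ifngr1 and once at Ifngr2, and in 38.2% of windows. None of the 4 windows held the interferon response core GAAANNGAA (8.15% of windows), the ETS-IRF core GGAANNGAA (7.76%), which contains GGAA, or the AP-1 site TGANTCA (6.99%).

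In cDC1 every receptor gene had at least 4 peaks. Ifngr1 had 12, Ifnar2 had 7, Ifnar1 had 5 and Ifngr2 had 4. Of 21887 protein-coding genes, 50.8% had at least 1 cDC1 peak and 11.9% had at least 4. As many peaks as Ifngr1 or more were found at 1.23% of genes. The lead of Ifngr1 rested on distant peaks: inside the gene or within 10 kb it had 3, against 4 each at Ifnar2 and Ifngr2 and 3 at Ifnar1. With the nearest gene of any type in place of protein-coding genes, 6 peaks were counted at Ifngr1. In cDC2 all 4 genes had a peak, namely 4 at Ifngr1, 2 at Ifnar1 and 1 each at Ifnar2 and Ifngr2, against 9.44% of genes with any cDC2 peak and 8.93% with a peak in both subsets. The stretch of chromosome nearest to a receptor gene differed in length, from 40.5 kb at Ifngr2 to 140.9 kb at Ifngr1. Per 100 kb of it, cDC1 peaks numbered 9.88 at Ifngr2, 8.52 at Ifngr1, 8.38 at Ifnar2 and 6.82 at Ifnar1. The mean over the autosomes and the X chromosome, gene-poor stretches included, was 1.21. For cDC2 the 4 genes together had 2.37 peaks per 100 kb, and the mean was 0.106.

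Ifngr1, the ligand-binding chain of the interferon gamma receptor, carried the highest peak of the family. Its gene spans 18.3 kb on chromosome 10, from 19591949 to 19610229 on the plus strand. In cDC1, the peak at 19591602 to 19591792, with its centre 0.252 kb upstream of the start site, held 139.1 normalised tags in wild type and 11.5 in knockout. That is a fold of 12.1 (95% interval 7.11 to 22.2), and its score ranked 27th of 31473. A further peak 11 kb upstream, at 19580821 to 19581011, held 82.0 wild-type and 1.65 knockout normalised tags (fold 49.7, 95% interval 13.7 to 412.9). The remaining 10 cDC1 peaks were weaker, from 7.47 to 36.1 normalised wild-type tags. Of them, 8 lay between 21.6 kb and 97.2 kb upstream, and the other two lay 21.3 kb and 22.5 kb downstream of the start site, beyond the upper gene end. None of the 12 was centred inside the gene, whereas 56.0% of all cDC1 peaks lay inside a protein-coding gene. At the peak 22.5 kb downstream the knockout was at the lowest value listed, 0.5 tag, which also stands for no tag, and the lower 95% limit of the fold was 11.1. Peaks 85.5 kb and 21.6 kb upstream were also at that lowest knockout value, with 17.6 and 22.7 normalised wild-type tags.

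In cDC2 the order along Ifngr1 was different. The highest peak lay 85.5 kb upstream, at 19506335 to 19506525, with 64.9 normalised wild-type and 6.59 knockout tags (fold 9.85, 95% interval 3.92 to 43.2). Its neighbour 87.8 kb upstream held 39.8 and 5.13 tags (fold 7.76, 95% interval 2.26 to 27.4). Both lie within Gm33104, a long non-coding RNA gene. The peak 11.1 kb upstream held 23.0 and 5.13 tags, and its fold of 4.49 (95% interval 1.16 to 16.9) stood close to the limit of 4. The remaining peak lay inside the gene, 5.06 kb downstream of the start site at 19596911 to 19597101. It held 33.5 normalised wild-type and 1.47 knockout tags (fold 22.9, 95% interval 3.55 to 959.1, from 1 knockout tag). No cDC1 peak was listed there, and the nearest was the one at the start site, 5.31 kb away. That start site peak, the highest of the family in cDC1, was not in the cDC2 list. At the depth of cDC2 its 139.1 normalised tags equal 66.4 tags, and the weakest peak listed in cDC2 held 6.02. The list does not say which limit a missing peak failed.

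**Figure D1:**
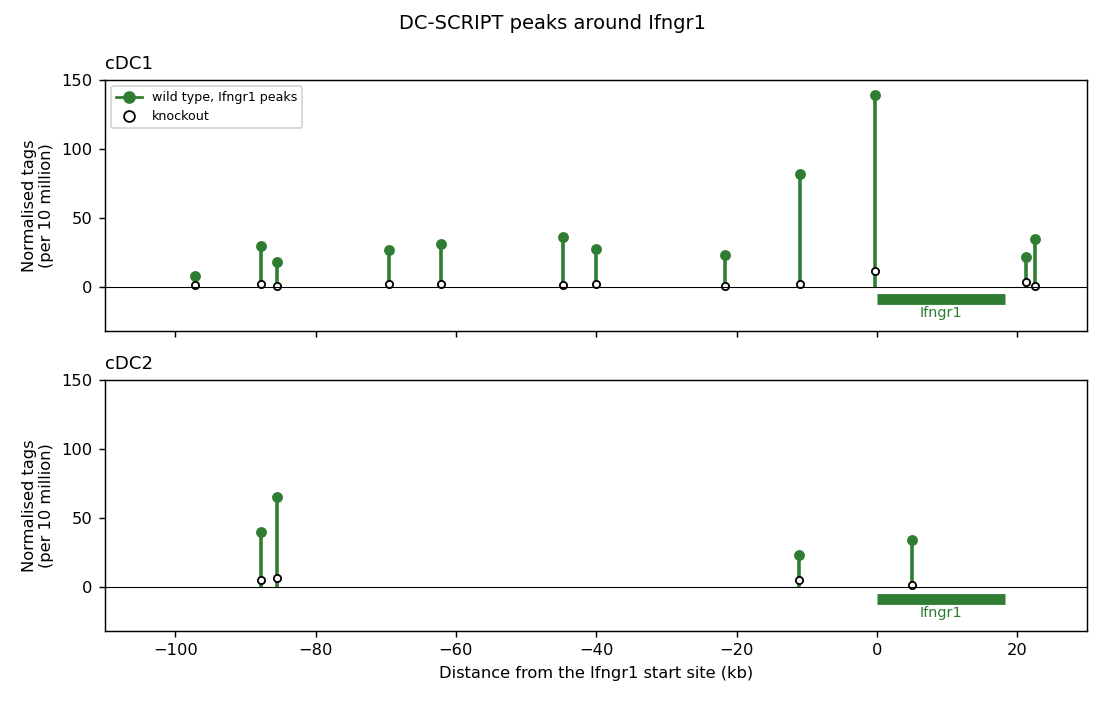
Normalised tags (per 10000000 tags) of peaks by distance from the Ifngr1 start site in kb, for cDC1 above and cDC2 below. Filled points with stems are wild type and open points knockout at Ifngr1 peaks, and the green bar is the gene; the cDC1 peak at the start site reaches 139.1, and the highest cDC2 peak, 64.9, stands 85.5 kb upstream.

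Ifnar2, the high-affinity ligand-binding chain of the type I receptor, had its strongest signal upstream of the gene in both subsets. The gene lies at 91372783 to 91405589 of chromosome 16, on the plus strand. In cDC1 a pair of peaks stood 17.9 kb and 17.4 kb upstream, at 91354747 to 91354937 and 91355301 to 91355491. The first held 94.2 normalised wild-type and 1.24 knockout tags (fold 77.7, 95% interval 15.7 to 473.7). The second held 116.6 and 7.01 (fold 16.6, 95% interval 8.90 to 41.3) and ranked 34th of the cDC1 list by score. Wild-type tags were higher at the second of the pair, and the intervals of both folds overlap. In cDC2 the single Ifnar2 peak, at 91355300 to 91355490, was offset by a single base from the second of the pair. It held 98.4 normalised wild-type and 10.3 knockout tags (fold 9.60, 95% interval 4.31 to 25.2) and ranked 8th of 2776 by score. The other 5 cDC1 peaks were weaker, from 6.20 to 18.0 normalised tags. Among them, the peak at the start site printed above, at 91372561 to 91372751, held 14.8 normalised wild-type tags. Its knockout value was the lowest listed, so only a lower 95% limit of the fold, 4.65, is given. Its centre also lies within Gm36587, a long non-coding RNA gene. The peaks 6.76 kb and 25.6 kb downstream were inside the gene, with 8.88 and 9.87 tags.

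Ifnar1, the chain that completes the type I receptor, had cDC1 peaks on both sides and at its start. RefSeq places the gene at 91485032 to 91510523 of chromosome 16, and the start site used here, at 91485215, lies inside that span. The peak at the start site, at 91485017 to 91485207, held 36.2 normalised wild-type and 3.71 knockout tags (fold 9.91, 95% interval 4.17 to 40.8). Upstream, peaks 20.3 kb and 4.50 kb away held 44.8 and 25.5 wild-type tags. Downstream, the highest Ifnar1 peak lay 37.0 kb from the start site, at 91522098 to 91522288, with 58.2 wild-type and 2.88 knockout tags (fold 20.2, 95% interval 6.78 to 65.3). At a weaker peak 27.3 kb downstream the knockout was again at its lowest value, which put the fold at no less than 3.08 by the 95% limit. In cDC2 the higher of the 2 Ifnar1 peaks stood near the strongest cDC1 peak without overlapping it. It lay at 91522760 to 91522950, with its centre 0.662 kb from that of the cDC1 peak, and held 57.6 wild-type and 10.3 knockout tags (fold 5.62, 95% interval 2.44 to 15.5). The other cDC2 peak lay 28.7 kb upstream, at 91456454 to 91456644, with 31.4 and 5.86 tags (fold 5.36, 95% interval 1.71 to 22.2). The nearest cDC1 peak, 4.44 kb away, was nearest to Il10rb.

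At Ifngr2, the chain that completes the interferon gamma receptor, the 4 cDC1 peaks held from 35.2 to 56.0 normalised wild-type tags. The gene spans 91547059 to 91564007 of chromosome 16. The highest, 14.9 kb downstream of the start site and inside the gene at 91561822 to 91562012, held 56.0 normalised wild-type and 4.53 knockout tags (fold 12.4, 95% interval 5.12 to 31.3). The peak 8.92 kb upstream held 52.2 and 2.88 (fold 18.1, 95% interval 6.08 to 58.7). Near the start site, a peak 0.358 kb upstream held 42.0 and 7.01 tags (fold 5.99, 95% interval 3.15 to 15.0), and one 0.547 kb downstream held 35.2 and 4.12 (fold 8.54, 95% interval 3.57 to 26.8). The intervals of these 4 folds overlap. In cDC2 Ifngr2 was the only one of the 4 genes with a peak within 1 kb of its start site. That peak, at 91546618 to 91546808, held 39.8 wild-type and 9.52 knockout tags. Its fold of 4.18 (95% interval 1.74 to 13.8) was the lowest of all receptor peaks in either list and stood just inside the limit of 4. Of the 17492 protein-coding genes, 2.44% had a cDC2 peak that close to a start site.

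**Figure D2:**
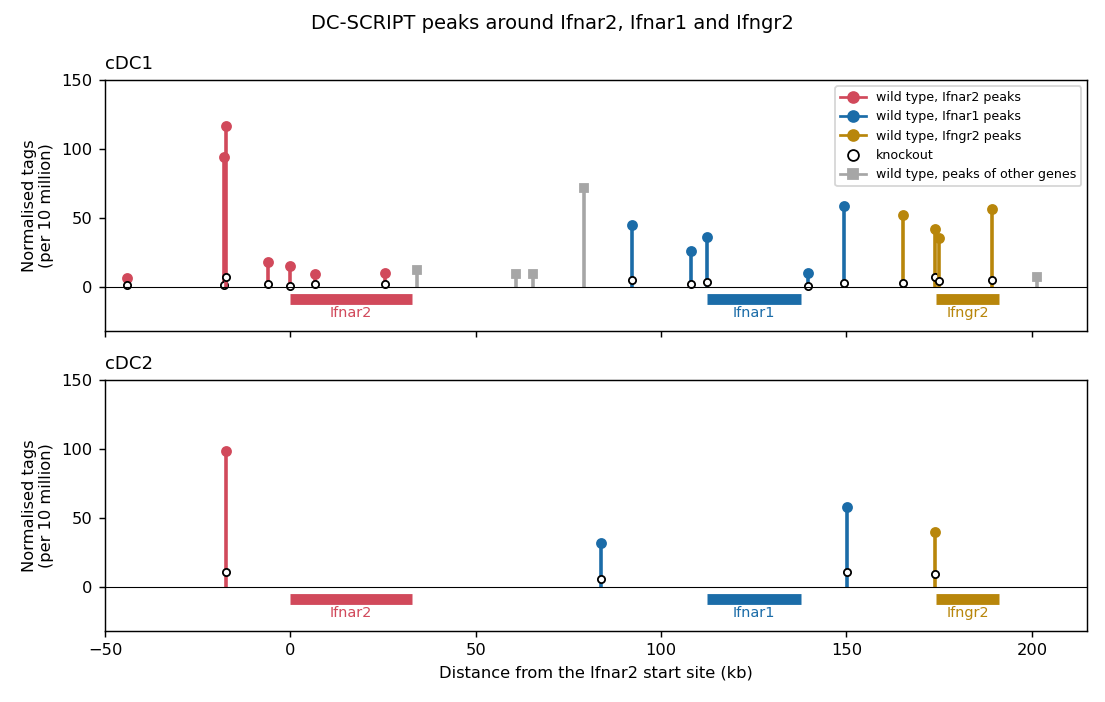
Normalised tags (per 10000000 tags) of peaks by distance from the Ifnar2 start site in kb, for cDC1 above and cDC2 below. Coloured points with stems are wild type and open points knockout at Ifnar2, Ifnar1 and Ifngr2 peaks, bars are the genes, and grey squares are wild-type values of peaks nearest to other genes; the Ifnar2 peaks 17.9 kb and 17.4 kb upstream stand above all others of the cluster in cDC1.

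The edges of the rule fell between receptor genes and their neighbours. Just inside, the cDC2 peak of Ifnar1 with 31.4 normalised tags lay 1116 bp from the point midway to Il10rb. Just outside, a cDC1 peak of 71.2 normalised wild-type and 8.24 knockout tags, at 91452018 to 91452208, lay 3.32 kb on the Il10rb side of that point. With it, Il10rb had 4 cDC1 peaks, of which the other three held 9.16 to 12.3 tags, and no cDC2 peak. Olig1, the coding gene below Ifnar2, lies 100.8 kb away from it. Above Ifngr2, the nearest Tmem50b peak, in cDC1, held 6.77 tags and stood 10.2 kb past the end of Ifngr2. On chromosome 10, a weak cDC1 peak of 7.61 tags fell to Olig3 by 0.319 kb. Beyond Ifngr1, Il22ra2, which encodes a soluble receptor for interleukin 22, had 5 cDC1 peaks and no cDC2 peak. Il20ra had 6 and 3, with the highest inside the gene at 39.0 normalised tags in cDC1 and 58.6 in cDC2.

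Over the 28 cDC1 peaks, normalised wild-type tags ran from 6.20 to 139.1 with a median of 30, and knockout tags from 0.412 to 11.5 with a median of 1.85. The whole cDC1 list had medians of 15.5 and 1.65. By score, 23 of the 28 stood at or above the median of the list. The knockout was at its lowest value at 5 of the 28, which is 17.9%, and at 20.1% of the list. The median fold was 13.8 for receptor peaks and 10.2 for the list. Over the 8 cDC2 peaks, wild-type tags ran from 23.0 to 98.4 with a median of 39.8 and knockout tags from 1.47 to 10.3 with a median of 6.23, against list medians of 24.1 and 3.66. Their median fold of 6.69 compared with 7.42 for the list. No receptor peak in cDC2 was at the lowest knockout value, against 13.8% of the list.

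**Figure D3:**
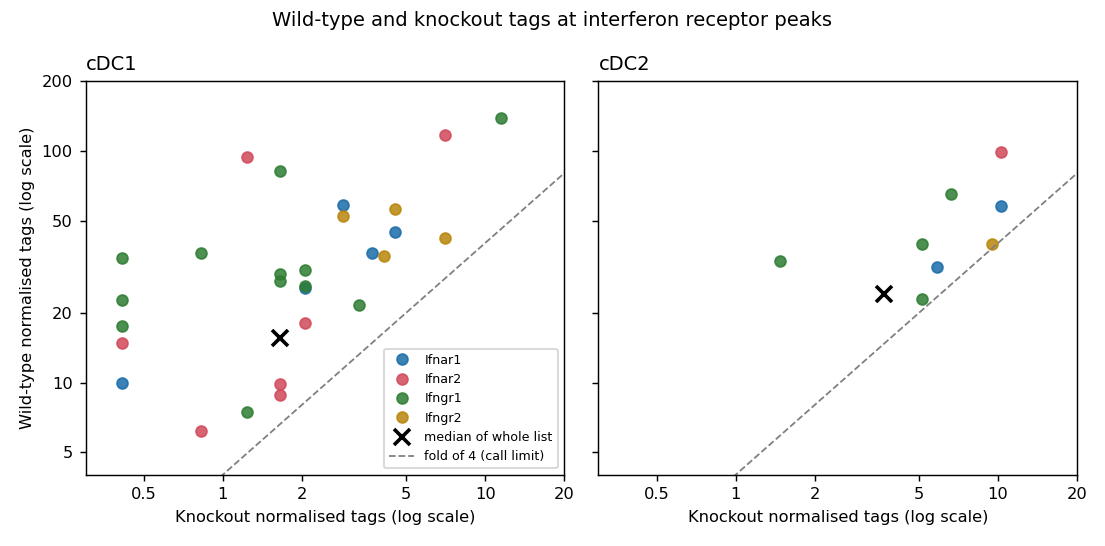
Wild-type against knockout normalised tags (both per 10000000 tags, log scales) at each receptor peak, cDC1 left and cDC2 right. Points are peaks coloured by gene, the cross is the median of the whole list and the dashed line the required fold of 4; the Ifngr1 start site peak has both the highest wild-type value, 139.1, and the highest knockout value, 11.5, of the cDC1 panel.

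Of the 8 cDC2 receptor peaks, 5 overlapped a cDC1 peak, which is 62.5%, and 63.7% of all cDC2 peaks did. Of the 28 cDC1 receptor peaks the same 5 places were shared, 17.9%, against 5.61% of all cDC1 peaks. The lowest value listed in cDC2 was 12.6 normalised tags. It was reached by 23 of the 28 cDC1 receptor peaks and by 19322 of the 31473 peaks of the cDC1 list. Among peaks that reached it, 21.7% of the receptor peaks and 8.42% of the list were shared. Of the 7 cDC1 receptor peaks over 50 normalised tags, 2 were shared, and 22.3% of all cDC1 peaks of that height were.

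Shared peaks at Ifnar2 and Ifngr2 had similar wild-type signal in both subsets. The ratio of cDC1 to cDC2 normalised tags was 1.18 at Ifnar2 (95% interval 0.876 to 1.64) and 1.06 at Ifngr2 (0.653 to 1.80), and both fell below 1, to 0.992 and 0.883, when each subset was scaled to its median over all shared peaks. Over all 1767 shared peaks the median ratio was 1.09, with the tenth percentile at 0.56 and the ninetieth at 2.08. At Ifngr1 the 3 shared peaks went in different directions. The ratio was 0.736 at 87.8 kb upstream (0.449 to 1.27), 0.271 at 85.5 kb (0.172 to 0.429) and 3.57 at 11.1 kb (1.96 to 7.21). Of all shared peaks, 0.34% had a ratio as low as 0.271 and 0.792% one as high as 3.57. Within each subset the tags of both places can be set against each other without regard to depth. The place 11.1 kb upstream held 4.69 times the tags of that 85.5 kb upstream in cDC1 (291 and 62 tags) and 0.355 times in cDC2 (11 and 31 tags). These ratios differ 13.2-fold (95% interval 6.02 to 30.5). The authors' scores, which limit repeated tags, gave 2.87 and 0.379. Against the shared place 87.8 kb upstream the contrast was smaller. There the tag ratios were 2.80 in cDC1 and 0.579 in cDC2, a 4.83-fold difference (95% interval 2.09 to 11.6). The pair of places 11.1 kb and 85.5 kb upstream was singled out after its values were seen. With 1 wild-type pool in cDC2, both contrasts are between these tag sets and were not tested between cell types.

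**Figure D4:**
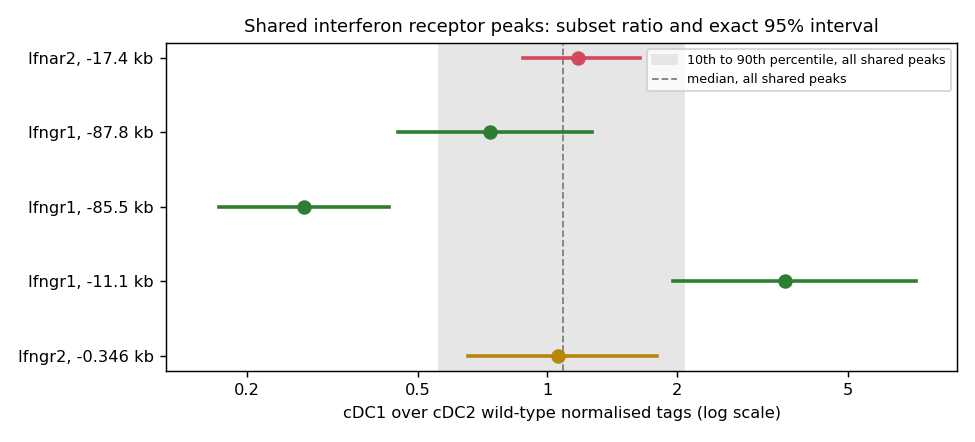
Ratio of cDC1 to cDC2 wild-type normalised tags (log scale) at the 5 receptor peaks that overlap between subsets, labelled by gene and distance from its start site. Points are ratios, bars exact 95% intervals for counting error, and the grey band and dashed line the range from the tenth to the ninetieth percentile and the median of all 1767 shared peaks; the Ifngr1 peaks 85.5 kb and 11.1 kb upstream lie on opposite sides of the band.

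Genes that act before and after these receptors, other interferon receptor subunits and class II cytokine receptor relatives were counted in lists. They held 44 genes in all, with 3 genes in more than 1 list. Of the kinases and STAT complex, 7 of 8 had a cDC1 peak and 3 of 8 a cDC2 peak, against the 50.8% and 9.44% of all genes. The kinases were the ones with peaks in both: Jak2 reached 83.0 normalised tags in cDC1 and 40.8 in cDC2, Jak1 41.7 and 55.5, and Tyk2 61.3 and 30.4. Here and in the lists that follow, values are for the highest-scoring peak per gene and subset, which may lie at different places. At Jak2 and Tyk2 that peak lay inside the gene in cDC1, and 12.2 kb and 3.57 kb away in cDC2. At Jak1 it lay 48.4 kb and 48.6 kb from the gene. Stat3 reached 79.9 in cDC1. Stat2, which acts downstream of the type I receptor, had a single cDC1 peak of 9.30 tags and none in cDC2, and its partner Irf9 had none in either list. Of the inhibitors of receptor signalling, 9 of 10 had a cDC1 peak and 2 of 10 a cDC2 peak. The cDC1 values were 36.2 at Socs1, 45.1 at Socs3, 36.7 at Ptpn6 and 39.8 at Pias1, and the cDC2 values 49.2 at Ptpn11 and 37.7 at Socs3.

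Among interferon regulatory factors, 7 of 9 had a cDC1 peak and 3 of 9 a cDC2 peak. For this list and those that follow, the share over all genes was 50.8% in cDC1 and 9.44% in cDC2. Irf5 was highest in cDC1 with 114.3 normalised tags, followed by score by Irf1 with 60.8, Irf8 with 50.7 and Irf2 with 50.6. In cDC2, Irf2 and Irf5 each reached 30.4 and Irf4 17.8. Of 10 interferon ligand genes, 7 had a cDC1 peak and 1 a cDC2 peak, which in cDC2 is near the share of all genes. The highest was near Ifna1, 14.1 kb from the gene with 64.8 tags, also in cDC2 with 40.8, and in cDC1 Ifng had 20.9 and Ifna2 10.3. The ligand genes of type I interferon lie side by side, so a peak there has several near genes. Both other interferon receptor subunits had cDC1 peaks and no cDC2 peak: Il10rb, and Ifnlr1, the specific chain of the interferon lambda receptor, with 3 peaks and at most 40.6 tags. Of the 8 class II cytokine receptor relatives, 7 had a cDC1 peak and 2 a cDC2 peak, Il20ra and Il20rb. Il10ra, the ligand-binding chain for interleukin 10, had 5 cDC1 peaks and reached 34.7 tags.

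Genes with the most similar pattern were found by 4 values, the numbers of cDC1 and cDC2 peaks and the normalised wild-type tags of the highest-scoring peak in each, as the distance between log2(value + 1) over the 1955 genes with peaks in both subsets. The nearest to Ifngr2 were Slc46a3 (distance 0.0375) and Capzb (0.107), each with 4 and 1 peaks. St3gal6 (0.260) and Sfi1 (0.272) were nearest to Ifnar1. For Ifnar2 they were Il1a (0.461), with 5 and 1 peaks and 101.5 and 100.5 tags, and Pdhx (0.549). Ifngr1 had the least close matches, Antxr2 (0.50) with 12 and 5 peaks and Chd7 (0.636) with 18 and 3.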

How the data were processed

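DC-SCRIPT CUT&Tag was measured in 8 libraries of splenic cDC1 and cDC2. The authors deposited 2 tables of peaks, 1 per subset, called with HOMER findPeaks in factor mode on 1 wild-type tag set with 1 knockout tag set as control, per the file headers. The sources used here do not give the aligner, the HOMER version or whether every library entered its set. Limits were a false discovery rate of 0.001, a fold of at least 4 over knockout and over the surrounding 10 kb, and a Poisson p of at most 0.0001. The submitters' processing notes name GRCm38 and mm10, 1 assembly.

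The deposited signal is wild-type tags scaled by the authors to 10000000. The deposited score is HOMER's own and limits repeated tags to 1 per position. The deposited fold ratio, Poisson p-value and focus ratio, a fraction, are the authors' values. The focus ratio, p-values and clonal column were not used. Tags were scaled back to unscaled tags here, and knockout depths worked out from the columns. In the cDC1 knockout 3 tags are worth 2.47 normalised tags, and in the cDC2 knockout 4.40. Tags were rounded to whole numbers for intervals (scipy 1.17.1). Their coverage was checked on simulated whole counts without repeated tags or call limits, so it is not shown for peaks that passed those limits.

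Genes and promoter sequences are RefSeq's, GRCm38.p6. All 4 receptor genes matched, each with 1 start site. The receptor genes and lists were chosen with earlier results of these data known. Named genes were the receptor genes and their neighbours, in each list the genes, at most 4, whose peaks scored highest, and the 2 most similar genes per receptor gene. Other list members were named after their values were seen.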

Additional observations from a re-analysis of the deposited data

How the results depend on the processing

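The number of receptor peaks depended on how peaks were assigned to genes. With peaks inside the gene or within 10 kb, 14 cDC1 and 2 cDC2 peaks were counted in place of 28 and 8. With the nearest gene of any type in place of protein-coding genes, 13 and 3 were counted, since genes that do not code for protein lie between, and Ifnar1 and Ifnar2 then had no cDC2 peak. Peaks with a fold of at least 8 numbered 3 of 8 in cDC2, where the median fold of the whole list, 7.42, is below that limit. The share of either list that passes these other rules is not given, so these peak counts cannot be set against one. Of the 44 genes in the lists, 11 had a cDC2 peak, against 9.44% of all protein-coding genes, and 5 by the 10 kb rule. In cDC1, 37 had a peak, against 50.8% of all genes, and 33 by the 10 kb rule. No share of all genes by the 10 kb rule is given, so the counts of 5 and 33 cannot be set against one. Scaling to the medians of all shared peaks, 31.3 normalised tags in cDC1 and 26.2 in cDC2, divides every subset ratio by the same constant. The scaled ratios therefore had to stay within 1.5 times, and this does not test them. The count of 5 shared peaks also stayed within 1.5 times, under other overlap limits and higher scores only. For the folds at the highest-scoring peaks, 2 alternatives had no room to act: raising knockout tags to 3 and taking the tallest peak. Each of these peaks held more than 3 knockout tags and was already the tallest of its gene. Local background gives a different quantity, 8.24 at Ifnar1 in cDC1 beside a fold over knockout of 20.2, so it does not test the folds. The windows of 0.5 kb and 2 kb around the start site, added after seeing the data, gave the same 4 cDC1 genes and 1 cDC2 gene. The shares of all genes were 28.6% and 34.9% in cDC1 and 1.88% and 2.99% in cDC2. The 2 kb window could not lose a gene found within 1 kb. The peak positions were known when the 0.5 kb window was added, so neither window tests the cDC1 count. No paired analysis was possible because the tables give 1 pooled value per genotype and subset, and for the same reason no library could be left out. The cDC2 depth limits what its list can hold. Of the 23 unshared cDC1 peaks, 5 lay below its lowest value and 18 at or above it, the highest equal to 66.4 tags at the cDC2 depth. In the whole cDC1 list 19322 of 31473 peaks reached that lowest value. Why these 18 were not listed in cDC2 was not tested.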
